A study of Mus musculus with 40 samples.

Results

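The 8 genes described here encode costimulatory receptors of T cells: 7 members of the TNF receptor superfamily, Tnfrsf1b (TNFR2), Tnfrsf4 (OX40), Tnfrsf8 (CD30), Tnfrsf9 (CD137), Tnfrsf18 (GITR), Tnfrsf25 (DR3) and Cd27, together with Icos, a receptor of the CD28 family. They were chosen by symbol, each symbol matched 1 row of the 21950 genes in the expression table, and all 8 passed the filter on low values in each model. TNF receptors of this kind bind trimeric ligands on antigen-presenting cells or other T cells and recruit TRAF adaptors, which feed into the classical and alternative NF-κB pathways. ICOS binds ICOS ligand and recruits phosphoinositide 3-kinase. Regulatory T cells (Tregs) are known for high surface levels of GITR, OX40, TNFR2 and CD137, CD27 is carried by naive T cells, and CD30 and ICOS are known as receptors of stimulated T cells.

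Bulk RNA-seq was carried out on mouse CD4+ T cells from spleen in 8 groups of 3 libraries. Conventional T cells (Tconvs) and thymus-derived Tregs (tTregs, which the labels name nTreg) were sorted from Foxp3-GFP mice of 2 to 4 months, in which an IRES-GFP cassette reports Foxp3, and were left resting or were activated. Induced Tregs (iTregs) were made from naive CD4+ T cells of 6-week-old mice over 4 days with plate-bound anti-CD3 at 0.5 µg per ml, anti-CD28 at 1 µg per ml, TGF-β at 2 ng per ml and IL-2 at 200 U per ml, sorted on the Foxp3 reporter and rested for 1 day. They were then left resting, or restimulated through CD3 and CD28 alone, with CM-4620 (an inhibitor of the calcium channel ORAI, given in the labels only as ORAIinh) or with CsA (cyclosporine A, an inhibitor of calcineurin). The lengths of activation and restimulation, the inhibitor doses and the number of animals are not stated for these RNA libraries. Mouse age and culture history moved with cell origin, so that the age of the mice and the cell type cannot be told apart in any comparison of iTregs with Tconvs or tTregs. The CsA libraries carry the cell type Treg in the labels and were used as iTregs, which is what their titles give.

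Of the genes, 6 lie on chromosome 4 (GRCm38, GENCODE annotation). Tnfrsf1b (145213463 to 145246870, minus strand) and Tnfrsf8 (145267137 to 145315164, minus strand) are neighbours with 20.3 kb between them. Tnfrsf4 (156013843 to 156016612, plus strand) and Tnfrsf18 (156026164 to 156028895, plus strand) are 9.55 kb apart. Tnfrsf9 (150914562 to 150946102, plus strand) and Tnfrsf25 (152115934 to 152120119, plus strand) stand alone on the same chromosome. Cd27 is on chromosome 6 (125232622 to 125237010, minus strand) and Icos on chromosome 1 (60977927 to 61000320, plus strand). An antisense gene, Gm16008, covers 27.2% of the exonic bases of Tnfrsf18, and the libraries did not mark the strand, so reads of the pair cannot be told apart over those bases.

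Upstream sequence is shown for Tnfrsf8, Tnfrsf9 and Tnfrsf4, since these were the 3 members called higher in restimulated iTregs. The sequences are RefSeq promoter windows of build GRCm38.p6, printed 5′ to 3′ on the gene's strand up to the transcription start or to the first annotated exon base of the gene. Capitals mark matches to the NFAT core GGAAA, the AP-1 motif TGANTCA or the NF-κB motif on either strand.
Tnfrsf8 (chr4:145315165-145315414, minus strand): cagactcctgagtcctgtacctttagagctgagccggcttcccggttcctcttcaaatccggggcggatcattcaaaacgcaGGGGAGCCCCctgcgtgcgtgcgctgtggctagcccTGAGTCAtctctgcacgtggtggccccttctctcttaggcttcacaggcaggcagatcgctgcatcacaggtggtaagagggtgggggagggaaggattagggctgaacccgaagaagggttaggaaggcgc
Tnfrsf9, first start (chr4:150919905-150920154, plus strand): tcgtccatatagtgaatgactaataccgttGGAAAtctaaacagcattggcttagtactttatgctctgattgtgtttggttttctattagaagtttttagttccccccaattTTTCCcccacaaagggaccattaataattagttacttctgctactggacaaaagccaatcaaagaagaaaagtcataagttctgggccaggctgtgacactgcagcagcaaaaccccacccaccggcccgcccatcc
Tnfrsf9, second start (chr4:150927749-150927917, plus strand): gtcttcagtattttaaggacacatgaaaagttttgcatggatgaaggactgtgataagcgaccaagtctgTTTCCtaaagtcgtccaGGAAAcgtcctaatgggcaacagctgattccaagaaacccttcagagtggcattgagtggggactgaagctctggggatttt
Tnfrsf4 (chr4:156013445-156013694, plus strand): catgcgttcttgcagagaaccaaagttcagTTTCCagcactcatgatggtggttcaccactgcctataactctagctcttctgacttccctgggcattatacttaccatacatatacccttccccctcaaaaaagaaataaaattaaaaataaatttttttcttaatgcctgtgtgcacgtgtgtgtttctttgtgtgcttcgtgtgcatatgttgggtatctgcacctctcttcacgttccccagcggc
In the Tnfrsf8 window the AP-1 letters TGAGTCA begin 132 bases before the start and the NF-κB letters GGGGAGCCCC 168 bases before it, with no GGAAA on either strand. The window of the second Tnfrsf9 start held all 3 motifs, with overlapping NF-κB matches (GGGGATTTCC and GGGATTTCCC) beginning 43 and 42 bases before the start, a GGAAA on the opposite strand inside them, and TGAGTCA from 15 bases before it. The last 81 bases before that start are annotated as exon of Tnfrsf9 and are not printed, so these matches lie outside the letters shown. Both Tnfrsf9 windows lie within the annotated span of Tnfrsf9 and of the neighbouring gene Camta1, and the Tnfrsf4 window within that of Sdf4. The first Tnfrsf9 window held 2 GGAAA matches and the Tnfrsf4 window 1. Among 32851 RefSeq promoter windows of the same length (250 bases before and 50 after the start), 61.3% held the NFAT core, 7.81% the AP-1 motif and 4.51% the NF-κB motif, so the NFAT core is common in any window of this size. Of the other members with an entry, Tnfrsf18, Tnfrsf25 and Cd27 held the NFAT core alone and Tnfrsf1b none of the 3, and no window was given for Icos. These matches describe letters, not bound sites.

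Values are deposited normalized counts, that is reads on a gene divided by 1 size factor per library. The libraries held 5256800 to 15685234 reads on genes, with tTregs the shallowest (at most 9893053). A gene was called where the adjusted p was below 0.05 over all genes tested and the log2 fold change exceeded 0.5 in size, and fold changes are on the log2(normalized count + 1) scale. Shares over all genes were computed for such calls only. Counts at an unadjusted p or at the adjusted p alone have no such share beside them. The same holds for statements that libraries do not overlap, and all of these are descriptive. Of the replicates, resting iTreg 3 and the tTreg libraries differed most from their group. The median coefficient of variation of the 8 members was 12.7% in resting and 15.5% in activated tTregs, against 5.23% to 10.6% in the other groups. Foxp3 stood at 10.4 and 33.8 normalized counts in resting and activated Tconvs and at 7537 and 7312 in tTregs. In the iTreg groups it stood at 710.3 to 1280.0. Ikzf2 was at 9403 and 6716 in resting and activated tTregs. Of the 3 Treg markers (Foxp3, Il2ra and Ikzf2) all 3 were called higher in resting tTregs than in resting Tconvs (20.5% of all genes). In resting iTregs 2 were called higher than in resting Tconvs (32.8% of all genes) and 1 was not called. Against resting tTregs, 1 was called higher in resting iTregs and 2 lower (32.3% and 31.1% of all genes). The summed T cell markers (6 genes) ran from 25042 to 37735. Summed B cell markers (4 genes) were 89.0 to 136 in tTregs and 16.0 to 44.3 elsewhere, almost all of it Cd79b, with Ms4a1 at 0 in every library. Summed dendritic markers (4 genes) were 557 to 919.6 in the iTreg groups and at most 51.7 elsewhere, almost all of it H2-Ab1. Myeloid markers summed to at most 25.3, NK markers to at most 30.9 and CD8 markers to between 99.0 and 236.

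Levels were set per kilobase of exon, which allows different genes to be compared. Tnfrsf18 (GITR) had the highest mean in every group except resting Tconvs, where Cd27 led. Cd27 stood at 1957 ± 30.2 normalized counts per kb (SD, n = 3) in resting Tconvs, which was 53.2% of the summed level of the 8 genes there. Tnfrsf18 followed at 769 ± 55.9 per kb and Icos at 341 ± 13.1 per kb. In the other 7 groups Tnfrsf18 was first, with 35.0% to 38.7% of the summed level, and Tnfrsf4 was second. Both means were within the SD of each other in restimulated iTregs (5328 ± 656 and 5142 ± 611 per kb). The same held with CM-4620 (4251 ± 342 and 4143 ± 374 per kb). The Tnfrsf18 level may also hold reads of the antisense gene Gm16008. In resting tTregs Tnfrsf18 and Tnfrsf4 came to 6366 ± 1017 and 4144 ± 509 per kb, with Tnfrsf9 next at 2995 ± 599 per kb. At the other end, Tnfrsf8 was the lowest of the 8 in both Tconv and both tTreg groups and Tnfrsf25 in all 4 iTreg groups. The summed level per kb was 3676 in resting and 9541 in activated Tconvs, 17674 and 20874 in resting and activated tTregs, 11506 in resting iTregs, 15089.8 after restimulation, 12158 when CM-4620 was added and 12288 for CsA. As a share of all normalized counts the 8 genes made up 0.0796% in resting Tconvs and 0.434% in activated tTregs. The make-up thus went from mostly Cd27 in resting Tconvs to mostly Tnfrsf18 and Tnfrsf4 elsewhere.

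**Figure D1:**
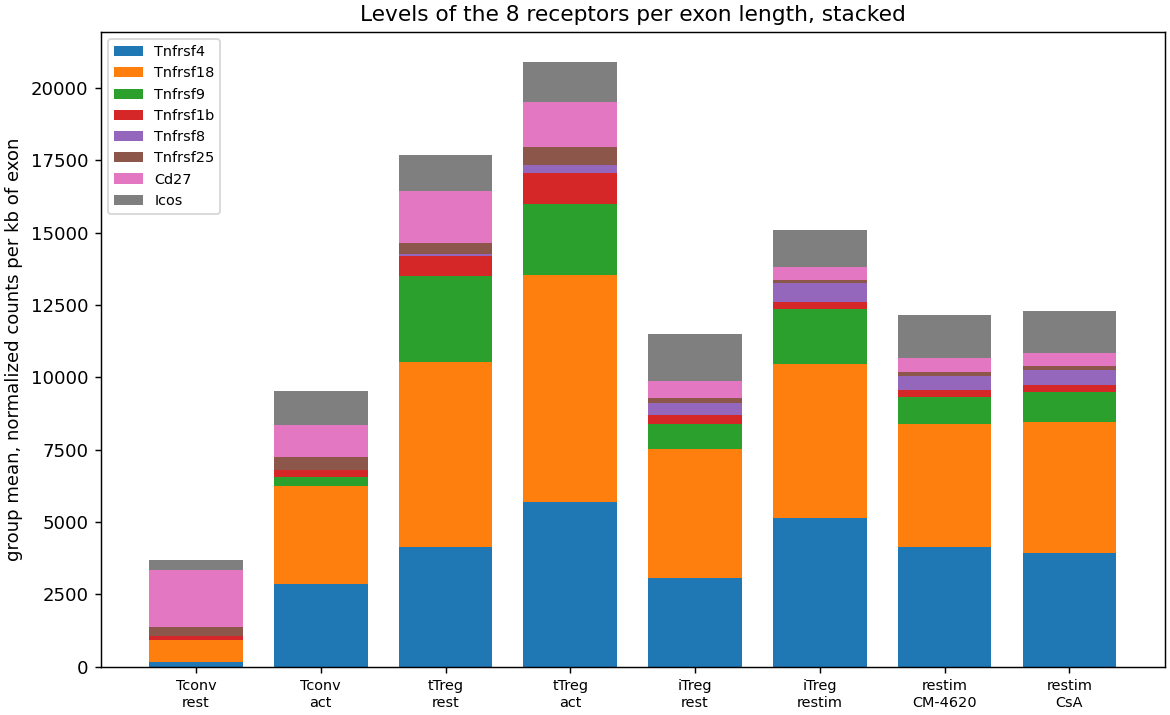
Stacked bars give the group means of the 8 receptor genes in normalized counts per kb of exon (y axis, linear, starting at 0) in the 8 groups (x axis, 3 libraries each). Cd27 makes up 53.2% of the bar of resting Tconvs, while Tnfrsf18 is the largest share of each of the other 7 bars.

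The members differed in how far their level ran between groups. The ratio of the highest to the lowest group mean was 253 for Tnfrsf9, 37.0 for Tnfrsf4, 10.2 for Tnfrsf18, 9.11 for Tnfrsf1b, 5.05 for Tnfrsf25, 4.78 for Icos and 4.60 for Cd27. For Tnfrsf8 it was 1122, but the 3 resting Tconv libraries held only 3, 2 and 1 reads, at or below the floor of 3 reads. Tnfrsf1b, Tnfrsf4 and Tnfrsf18 were highest in activated tTregs, Tnfrsf9 in resting tTregs and Tnfrsf25 in activated tTregs, whereas Cd27 was highest in resting Tconvs, Icos in resting iTregs and Tnfrsf8 in restimulated iTregs. With each member's 8 groups put in order of their means, 16 of the 56 neighbouring pairs differed, and 30.7% of all gene and pair combinations tested did so over the same pairs. The pairs were neighbours in the member's own order, which keeps their gaps small. For other genes they need not be neighbours, so both shares are not alike. Pairs that differed are named steps here, as a description of the order. A missing step does not mean that groups further apart were equal. Tnfrsf8 had 4 steps, Tnfrsf1b and Tnfrsf9 had 3 each, Tnfrsf25 had 2, and Tnfrsf4, Tnfrsf18, Cd27 and Icos had 1 each.

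For Icos the single step was from resting to activated Tconvs, and the 7 groups above it ran from 4087 to 5578 normalized counts with no neighbouring pair past the threshold. Tnfrsf4 and Tnfrsf18 also had their single step there, Tnfrsf4 from 210.4 to 3892 and Tnfrsf18 from 1172 to 5166. For Cd27 it lay between activated Tconvs (2568) and resting iTregs (1379), so that all 4 iTreg groups were below all Tconv and tTreg groups. Tnfrsf1b stepped between activated and resting tTregs, between resting tTregs and resting iTregs, and between activated and resting Tconvs, while the 4 iTreg groups and activated Tconvs, from 867 to 1154, had no step among them. Tnfrsf9 stepped between restimulated iTregs and those given CsA, between resting iTregs and activated Tconvs, and between activated and resting Tconvs. Tnfrsf8 stepped at each place below resting iTregs, in the order resting iTregs, activated tTregs, resting tTregs, activated Tconvs and resting Tconvs. Tnfrsf25 stepped between activated tTregs and activated Tconvs, and between resting Tconvs and resting iTregs.

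**Figure D2:**
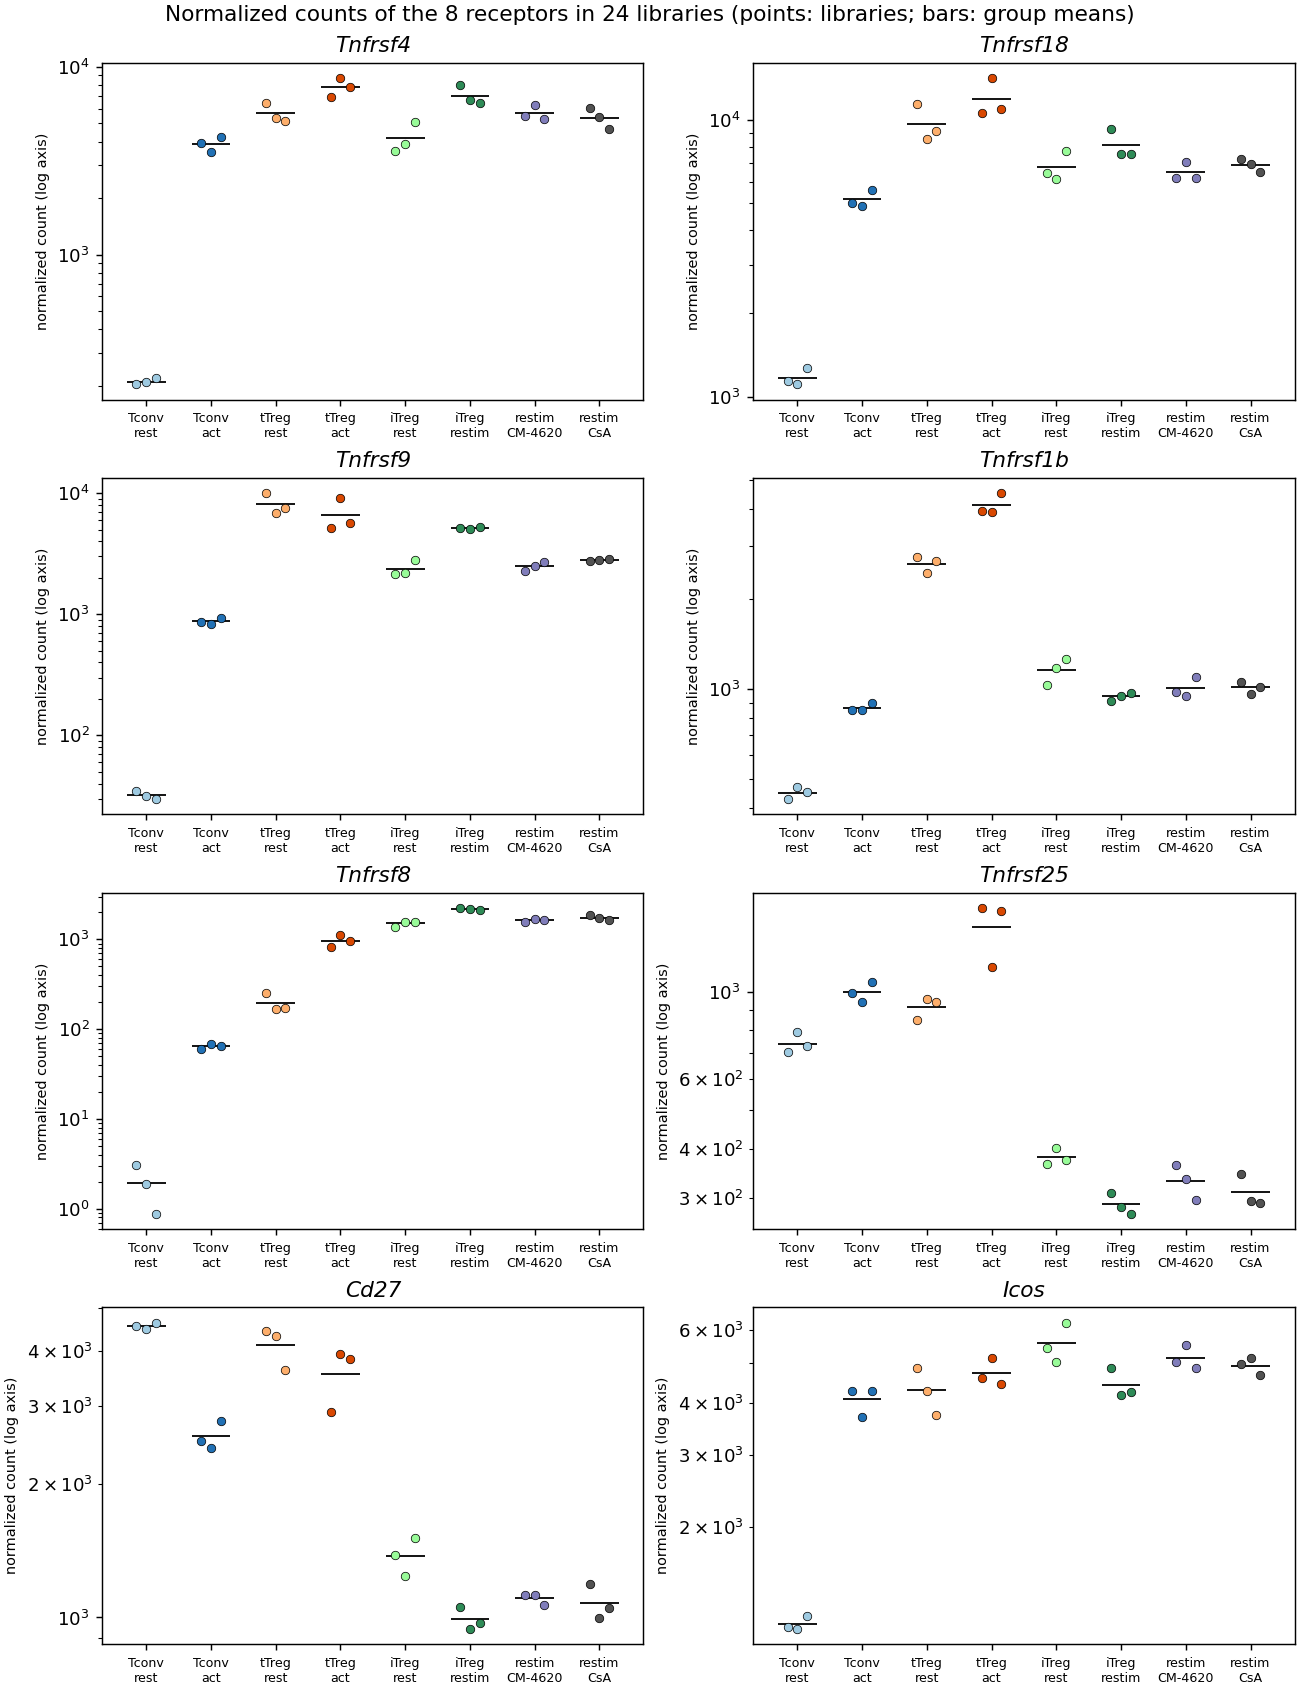
Each panel shows 1 receptor gene, with normalized counts on a log axis (y) for the 8 groups (x), where points are the 3 libraries of a group and bars their mean. The resting Tconv points of Tnfrsf8 and Tnfrsf9 lie far below all others, while Cd27 is lower in the 4 iTreg groups than in the Tconv and tTreg groups.

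The first comparison asked how Tconvs respond to activation. In activated Tconvs 6 of the 8 members rose (24.5% of all genes were called higher), Cd27 fell (25.7% of all genes were called lower), and Tnfrsf25 was not called. The median log2 fold change of the 8 was 1.97, against -0.04 over all genes tested. The largest differences were those of Tnfrsf9, Tnfrsf8 and Tnfrsf4. Tnfrsf9 (CD137), a receptor that sustains T cell survival through TRAF adaptors, was at 35.0, 31.9 and 29.8 normalized counts in resting Tconvs and 864, 834 and 933 in activated Tconvs, a log2 fold change of 4.72 ± 0.18 (SE, adjusted p = 2.03e-11). Tnfrsf4 (OX40), which prolongs effector T cell responses, was at 204, 208 and 219 normalized counts in resting Tconvs and 3924, 3514 and 4239 in activated Tconvs, a log2 fold change of 4.20 ± 0.13 (SE, adjusted p = 1.73e-12). The libraries of the groups were far apart for both genes. Tnfrsf8 (CD30) was at 3.09, 1.88 and 0.878 normalized counts in resting Tconvs and 60.2, 68.1 and 65.1 in activated Tconvs. With 6 reads in all resting and 238 in all activated libraries, the ratio was 34.2 (95% exact interval for counting error only, 15.5 to 94.1), and its fitted log2 fold change of 4.54 ± 0.23 (SE, adjusted p = 4.13e-10) depends on the added count of 1.

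Tnfrsf18 (GITR), which counters suppression when ligated on T cells, rose from an already sizeable level. It was at 1139.5, 1109 and 1269 normalized counts in resting Tconvs and 5025, 4903 and 5569 in activated Tconvs, a log2 fold change of 2.14 ± 0.13 (SE, adjusted p = 2.89e-09). Icos was at 1149, 1136 and 1219 normalized counts in resting Tconvs and 4279, 3695 and 4287 in activated Tconvs, a log2 fold change of 1.80 ± 0.11 (SE, adjusted p = 1.97e-09). Neither gene overlapped between the groups. Tnfrsf1b (TNFR2), the receptor for TNF on T cells that lacks a death domain, was at 429, 471 and 452 normalized counts in resting Tconvs and 850.3, 853 and 896 in activated Tconvs and rose by 0.94 ± 0.09 on the log2 scale (SE, adjusted p = 3.02e-07). Cd27, the receptor for CD70, was at 4544, 4493 and 4632 normalized counts in resting Tconvs and 2503, 2418 and 2783 in activated Tconvs, with a log2 fold change of -0.83 ± 0.12 (SE, adjusted p = 1.94e-05), and was the only member that fell. Tnfrsf25 (DR3), the death domain receptor for TL1A, was at 701, 788 and 726 normalized counts in resting Tconvs and 990.4, 942 and 1056 in activated Tconvs. Its groups did not overlap, but its log2 fold change of 0.43 ± 0.11 (SE, adjusted p = 0.00436) was below the fold threshold. Over the same libraries the summed CD8 markers went from between 223 and 236 to between 109.5 and 123 normalized counts, and the NK markers from between 19.3 and 30.9 to between 0.898 and 3.54. The dendritic marker sum went from between 15.8 and 21.6 to between 40.4 and 51.6, and that of the general T cell markers from between 36761 and 37735 to between 27398.5 and 29385. Their part in these changes was not tested. As these are bulk samples, more cells expressing a gene and more RNA per cell cannot be told apart here or in what follows.

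tTregs were compared in the same way. On activation 3 of the 8 members rose (11.9% of all genes were called higher) while none fell (10% were called lower). edgeR and DESeq2 also called 3 members, and over all 11495 genes they called 2449 and 2391. With limma 5 members had an unadjusted p below 0.05, all with higher means. The share of all genes at that threshold was not computed. The median log2 fold change of the members was 0.38. Tnfrsf8 had the largest difference, at 250.4, 166 and 173 normalized counts in resting tTregs and 825, 1120.2 and 970.0 in activated tTregs, a log2 fold change of 2.31 ± 0.23 (SE, adjusted p = 6.91e-06). Tnfrsf1b was at 2759, 2430.4 and 2665 normalized counts in resting tTregs and 3919, 3886 and 4503 in activated tTregs, a log2 fold change of 0.65 ± 0.09 (SE, adjusted p = 9.40e-05). Tnfrsf25 was at 845, 956 and 941 normalized counts in resting tTregs and 1628, 1156 and 1595 in activated tTregs, a log2 fold change of 0.66 ± 0.11 (SE, adjusted p = 5.89e-04). For none of the 3 did the groups overlap, nor for Tnfrsf4, which was not called.

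The other 5 members were not called in tTregs. Tnfrsf9 was at 9990.2, 6877 and 7593 normalized counts in resting tTregs and 5187, 9078 and 5616 in activated tTregs, so that activated library 2 lay within the resting range and the groups overlapped (log2 fold change -0.33 ± 0.18 SE, adjusted p = 0.182). Without activated tTreg 2 its log2 fold change was -0.58 and it was called lower. Tnfrsf4 was at 6452, 5345 and 5173 normalized counts in resting tTregs and 6908, 8687 and 7771 in activated tTregs, with a log2 fold change of 0.46 ± 0.13 (SE, adjusted p = 0.0126), which passed the adjusted p but not the fold threshold. It was called higher without activated tTreg 1 (0.55) or without resting tTreg 1 (0.56). Whether Tnfrsf4 and Tnfrsf9 are counted as changed in tTregs thus turned on single libraries. Tnfrsf18 was at 11459, 8533 and 9113 normalized counts in resting tTregs and 10610.2, 14165 and 11017 in activated tTregs (log2 fold change 0.30 ± 0.13 SE, adjusted p = 0.0894), Cd27 at 4436, 4319.7 and 3617 normalized counts in resting tTregs and 2907, 3931 and 3829 in activated tTregs (-0.22 ± 0.12 SE, adjusted p = 0.155) and Icos at 4868, 4278 and 3747 normalized counts in resting tTregs and 4604, 5148 and 4456 in activated tTregs (0.15 ± 0.11 SE, adjusted p = 0.308). All 3 overlapped between the groups.

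The difference between both responses was tested as an interaction. For 5 members the change in Tconvs exceeded that in tTregs (17% of all genes were called in this direction), and for Cd27 it was below it (17.7% were called in that direction). The interaction was 5.05 ± 0.26 (SE, adjusted p = 2.26e-09) on the log2 scale for Tnfrsf9 and 3.74 ± 0.18 (SE, adjusted p = 1.21e-09) for Tnfrsf4. It was 2.23 ± 0.33 (SE, adjusted p = 9.09e-05) for Tnfrsf8, 1.84 ± 0.18 (SE, adjusted p = 2.19e-06) for Tnfrsf18 and 1.66 ± 0.15 (SE, adjusted p = 8.68e-07) for Icos. The size for Tnfrsf8 depends on the added count of 1, as does its change in Tconvs. All 5 had lower resting means in Tconvs than in tTregs, and these resting means enter the interaction itself. Tnfrsf1b also had a lower resting mean in Tconvs (450.6 against 2618 normalized counts), but its interaction was not called. For Cd27 the interaction was -0.61 ± 0.16 (SE, adjusted p = 0.0088), a call that was lost with quantile scaling (-0.46). Tnfrsf1b (0.30 ± 0.13 SE, adjusted p = 0.0745) and Tnfrsf25 (-0.23 ± 0.16 SE, adjusted p = 0.291) were not called, with 95% intervals of 0.03 to 0.56 and -0.58 to 0.12.

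**Figure D3:**
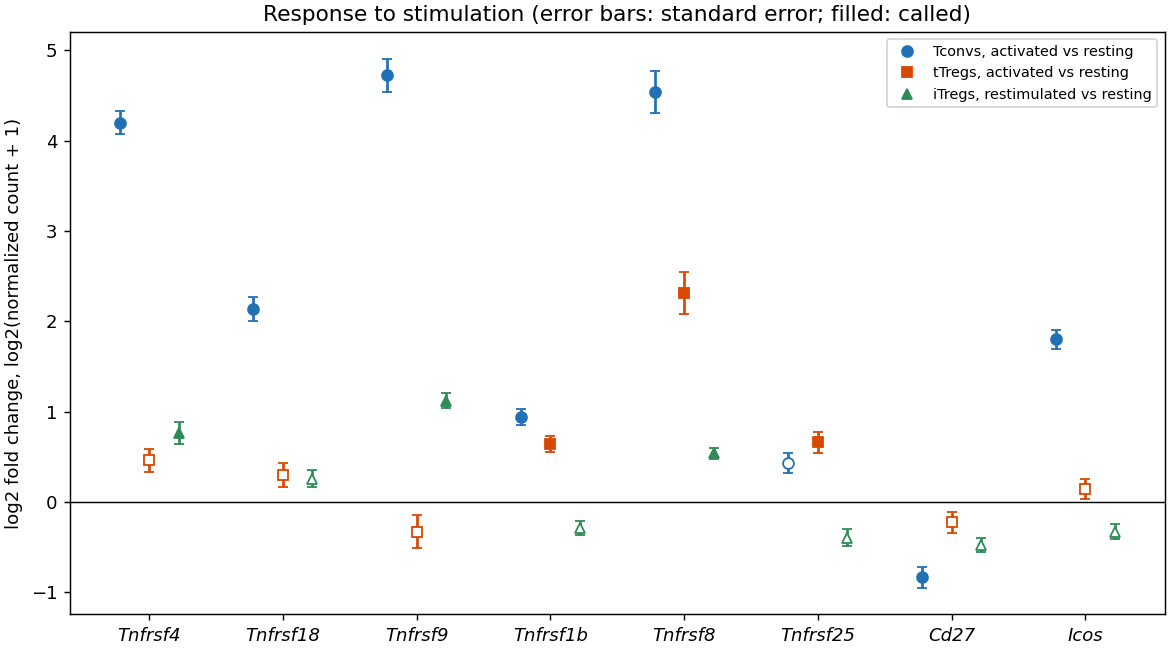
Log2 fold changes of the 8 receptor genes, with bars of 1 SE, for activated minus resting Tconvs, activated minus resting tTregs and restimulated minus resting iTregs (3 libraries a group). Filled points were called and open points were not. Tnfrsf9 lies at 4.72 in Tconvs, -0.33 in tTregs and 1.12 in iTregs.

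Tregs and Tconvs were compared at rest to ask which receptors mark tTregs. In resting tTregs 6 members were higher than in resting Tconvs (20.5% of all genes were called higher), none was lower (18.2% were called lower), and the median log2 fold change was 2.79 against -0.02 over all genes. edgeR and DESeq2 each called 6 members, and over all 11495 genes they called 4420 and 4344. With limma 7 members had an unadjusted p below 0.05, all with higher means in tTregs. The share of all genes at that threshold was not computed. Tnfrsf9 had group means of 32.2 ± 2.58 and 8153 ± 1630.5 normalized counts (SD, n = 3) in Tconvs and tTregs, a log2 fold change of 7.92 ± 0.18 (SE, adjusted p = 7.25e-14). It is also a gene that the study itself picked from these libraries, so its direction is not independent of that choice. Tnfrsf8 reached 197 ± 46.8 in tTregs, 107 times the resting Tconv level (95% exact interval for counting error only, 48.9 to 293). That Tconv level rests on 6 reads in all. Tnfrsf4 was at 5657 ± 694, a log2 fold change of 4.74 ± 0.13 (SE, adjusted p = 5.26e-13). Every resting tTreg library lay above every resting Tconv library for these 3 receptors. The libraries of all 8 members did not overlap in this comparison, the 2 that were not called included. How many of all genes do not overlap was not computed, so this is a description only.

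Smaller differences at rest were those of Tnfrsf18 (3.04 ± 0.13 SE on the log2 scale, adjusted p = 7.78e-11), Tnfrsf1b (2.54 ± 0.09 SE, adjusted p = 8.02e-12) and Icos (1.87 ± 0.11 SE, adjusted p = 1.68e-09). Tnfrsf25 was 738 ± 44.6 in Tconvs and 914 ± 60.0 in tTregs (0.31 ± 0.11 SE, adjusted p = 0.0364) and Cd27 4556 ± 70.3 and 4124 ± 443 (-0.15 ± 0.12 SE, adjusted p = 0.303), and neither was called. Resting Tconvs and tTregs thus carried CD27 transcripts at levels whose log2 difference had a 95% interval of -0.40 to 0.10. The summed B cell markers were higher in tTregs (127.9 to 136 against 20.2 to 31.9 at rest). Of these 4 genes 2 were tested, with 1 called higher and 1 lower (20.5% and 18.2% of all genes). Ms4a1 was at 0 in every library. Lower in resting tTregs than in resting Tconvs were the sums of the NK markers (0 against 19.3 to 30.9), the dendritic markers (0 to 5.44 against 15.8 to 21.6) and the CD8 markers (157 to 178 against 223 to 236). The part of these sums in the differences was not tested.

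After activation the distance between both cell types was smaller for the 5 genes whose interaction was called above 0, which is the same contrast. In activated tTregs 6 members were higher than in activated Tconvs (25.6% of all genes were called higher), and the median log2 fold change was 1.10. Tnfrsf8 differed by 3.88 ± 0.23 (SE, adjusted p = 4.02e-09) on the log2 scale, Tnfrsf9 by 2.87 ± 0.18 (SE, adjusted p = 7.71e-09) and Tnfrsf1b by 2.24 ± 0.09 (SE, adjusted p = 4.03e-11). Tnfrsf18 differed by 1.20 ± 0.13 (SE, adjusted p = 1.85e-06) and Tnfrsf4 by 1.00 ± 0.13 (SE, adjusted p = 9.76e-06). TNFR2 thus kept a difference near that at rest. Tnfrsf25, at 0.54 ± 0.11 (SE, adjusted p = 9.75e-04), was past the fold threshold by little, and was not called with recomputed size factors (0.49), with TMM scaling (0.44) or without activated tTreg 1 (0.45), activated tTreg 3 (0.46) or activated Tconv 2 (0.50). Cd27 was at 0.46 ± 0.12 (SE, adjusted p = 0.0033) and was called without activated tTreg 1 (0.60) or activated Tconv 3 (0.52). Icos, at 4087 ± 339.7 and 4736 ± 364 normalized counts, was not called (0.21 ± 0.11 SE, adjusted p = 0.0954).

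Resting iTregs were compared with resting Tconvs, with activated Tconvs and with resting tTregs. Against resting Tconvs all 8 members differed, 6 higher (32.8% of all genes were called higher) and 2 lower (30.8% were called lower). Tnfrsf8 had the largest ratio, at 1373, 1565 and 1579 normalized counts in resting iTregs, 802 times the resting Tconv level. Its 95% exact interval of 368 to 2187 covers counting error only, and the resting Tconv libraries held 6 reads in all. Tnfrsf9 was at 2154, 2210.4 and 2789 (log2 fold change 6.16 ± 0.18 SE, adjusted p = 4.43e-13) and Tnfrsf4 at 3556, 3897 and 5058 (4.29 ± 0.13 SE, adjusted p = 4.68e-13). For both genes library 3 was the highest of the group. Tnfrsf18 (2.53 ± 0.13), Icos (2.25 ± 0.11) and Tnfrsf1b (1.35 ± 0.09, SE in each case) were higher with adjusted p of 1.77e-10, 6.53e-11 and 2.58e-09. Cd27 (-1.73 ± 0.12 SE, adjusted p = 3.53e-09) and Tnfrsf25 (-0.96 ± 0.11 SE, adjusted p = 2.41e-06) were lower. The comparisons with activated Tconvs and resting tTregs share the resting iTreg libraries with this one.

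Against activated Tconvs, Tnfrsf8 and Tnfrsf9 were higher in resting iTregs (22.9% of all genes were called higher). Cd27 and Tnfrsf25 were lower (18.7% were called lower), and 4 members were not called. Over all genes too, the share called in either direction was smaller than against resting Tconvs (41.6% and 63.6%). The smaller number of calls was thus not particular to the members. The log2 fold change was 4.52 ± 0.23 (SE, adjusted p = 6.36e-10) for Tnfrsf8 and 1.43 ± 0.18 (SE, adjusted p = 1.04e-05) for Tnfrsf9. It was -1.39 ± 0.11 (SE, adjusted p = 1.21e-07) for Tnfrsf25 and -0.90 ± 0.12 (SE, adjusted p = 1.20e-05) for Cd27. Tnfrsf4 was at 3892 ± 364 in activated Tconvs and 4170.4 ± 787 normalized counts (SD, n = 3) in resting iTregs, with a 95% interval of the log2 difference of -0.19 to 0.36. Icos (0.45 ± 0.11 SE, adjusted p = 0.00239), Tnfrsf1b (0.41 ± 0.09 SE, adjusted p = 0.00121) and Tnfrsf18 (0.39 ± 0.13 SE, adjusted p = 0.0201) passed the adjusted p but not the fold threshold. Icos was called without resting iTreg 2 (0.52).

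Against resting tTregs, CD30 was the 1 receptor that was higher in resting iTregs (32.3% of all genes were called higher) and 5 were lower (31.1% were called lower). Tnfrsf8 was at 197 ± 46.8 in tTregs and 1506 ± 115 in iTregs (SD, n = 3), a log2 fold change of 2.95 ± 0.23 (SE, adjusted p = 2.42e-08). Tnfrsf9 was at 8153 ± 1630.5 and 2385 ± 351, with a log2 fold change of -1.76 ± 0.18 (SE, adjusted p = 5.22e-07). Cd27 (-1.58 ± 0.12 SE, adjusted p = 1.16e-08), Tnfrsf25 (-1.26 ± 0.11 SE, adjusted p = 1.24e-07) and Tnfrsf1b (-1.18 ± 0.09 SE, adjusted p = 1.37e-08) were lower as well. iTregs thus held CD137 between the levels of Tconvs and tTregs, and CD27 and DR3 below both. Tnfrsf18 was only just past the fold threshold (-0.51 ± 0.13 SE, adjusted p = 0.00248). It was not called with recomputed size factors (-0.49), with DESeq2, or without resting iTreg 1 (-0.48), resting iTreg 2 (-0.44) or resting tTreg 1 (-0.39). Tnfrsf4 (-0.45 ± 0.13 SE, adjusted p = 0.00556) was not called, but was without resting iTreg 3 (-0.60) or resting tTreg 3 (-0.51). Icos was 0.38 ± 0.11 (SE, adjusted p = 0.00486) and not called. Of the 4 dendritic markers 2 passed the filter, H2-Ab1 and H2-Aa, and both were called higher in resting iTregs (32.3% of all genes). H2-Ab1, which makes up most of the sum, was at 639 normalized counts in resting iTregs and 2.05 in resting tTregs. Itgax was at most at 2.64 and Flt3 at most at 2.40 in any library. The part of these markers in the differences was not tested.

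Restimulation of rested iTregs through CD3 and CD28 was the next comparison, since it is the setting in which the study followed the stability of iTregs. Tnfrsf9, Tnfrsf4 and Tnfrsf8 rose (6.7% of all genes were called higher) and no member was called lower (6.13% were called lower). edgeR and DESeq2 each called 3 members too, and over all 11105 genes they called 1423 and 1318. With limma all 8 had an unadjusted p below 0.05, 4 of them with lower means. The share of all genes at that unadjusted p was not computed. Tnfrsf9 was at 2154, 2210.4 and 2789 normalized counts in resting iTregs and 5182, 5052 and 5248 in restimulated iTregs, 2.16 times the resting mean and a log2 fold change of 1.12 ± 0.09 (SE, adjusted p = 2.01e-07). Tnfrsf4 was at 3556, 3897 and 5058 normalized counts in resting iTregs and 7974, 6652 and 6432 in restimulated iTregs, a log2 fold change of 0.76 ± 0.12 (SE, adjusted p = 3.06e-04). Tnfrsf8 was at 1373, 1565 and 1579 normalized counts in resting iTregs and 2241, 2172 and 2138 in restimulated iTregs, a log2 fold change of 0.54 ± 0.06 (SE, adjusted p = 1.65e-05). For all 3 every restimulated library lay above every resting library. Apart from Tnfrsf18, the members that were not called did not overlap between these groups either. How many of all genes do not overlap was not computed here either. The Tnfrsf8 change was close to the fold threshold and was not called without resting iTreg 1 (0.47). Only Tnfrsf9 exceeded a log2 fold change of 1. The summed dendritic markers, mostly H2-Ab1, were at 644 to 675 normalized counts at rest and 882 to 919.6 after restimulation, and their part in these changes was not tested.

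The other 5 members stayed within 0.5 on the log2 scale. Cd27 was at 1384, 1242 and 1512 normalized counts in resting iTregs and 1056, 944 and 973 in restimulated iTregs (-0.47 ± 0.08 SE, adjusted p = 4.69e-04), and was called lower without resting iTreg 2 (-0.55) or restimulated iTreg 1 (-0.52). Tnfrsf25 was at 366, 402 and 373 normalized counts in resting iTregs and 309, 285 and 273 in restimulated iTregs (-0.39 ± 0.10 SE, adjusted p = 0.00603). Icos was at 5442, 5034 and 6258 normalized counts in resting iTregs and 4874, 4182 and 4244 in restimulated iTregs (-0.33 ± 0.08 SE, adjusted p = 0.00688). These 3 and Tnfrsf1b, at 1029, 1175 and 1259 normalized counts in resting iTregs and 915, 950.3 and 972 in restimulated iTregs (-0.28 ± 0.08 SE, adjusted p = 0.0133), passed the adjusted p with lower means after restimulation, but not the fold threshold. Tnfrsf18 was at 6462, 6145 and 7743 normalized counts in resting iTregs and 9273, 7559.9 and 7525 in restimulated iTregs (0.26 ± 0.09 SE, adjusted p = 0.0508). With the adjusted p alone 7 of the 8 members would count as changed, 3 higher and 4 lower. The share of all genes at that threshold was not computed. Over the same libraries Foxp3 itself went from 1280.0 ± 88.4 to 710.3 ± 18.7 normalized counts (SD, n = 3).

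The inhibitors were then compared with restimulation alone, and both comparisons share the 3 restimulated libraries. CD137 was the 1 member that fell with either compound, back to near its resting level. Among all genes 1.79% were called lower with CM-4620 and 1.35% with CsA. Tnfrsf9 was at 2258, 2501 and 2688 normalized counts with CM-4620, a log2 fold change from restimulated cells of -1.06 ± 0.09 (SE, adjusted p = 3.22e-06). With CsA it was at 2752, 2821 and 2839.6, a log2 fold change of -0.88 ± 0.09 (SE, adjusted p = 2.51e-05). No inhibitor library reached the lowest restimulated library. Tnfrsf8 was at 1579, 1671 and 1635 with CM-4620 (-0.42 ± 0.06 SE, adjusted p = 6.59e-04) and at 1848, 1735 and 1665 with CsA (-0.32 ± 0.06 SE, adjusted p = 0.00579), where the adjusted p passed and the fold did not. Tnfrsf4 was at 5487, 6229 and 5249 (-0.31 ± 0.12 SE, adjusted p = 0.162) and 6025, 5398 and 4659 (-0.39 ± 0.12 SE, adjusted p = 0.0652). None of the Tnfrsf8 libraries with an inhibitor overlapped with restimulation alone, and neither did those of Tnfrsf4. The dendritic marker sum, at 882 to 919.6 normalized counts after restimulation alone, was at 612 to 647 with CM-4620 and 557 to 658 with CsA, and its part in these differences was not tested.

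The 5 members that had not been called on restimulation were not called with an inhibitor either. Tnfrsf18 was at 6479 ± 521 with CM-4620 (-0.32 ± 0.09 SE, adjusted p = 0.0506) and 6893 ± 357 with CsA (-0.23 ± 0.09 SE, adjusted p = 0.155), against 8119 ± 999.5 without. Icos (0.21 and 0.15), Tnfrsf25 (0.19 and 0.10), Cd27 (0.16 and 0.12) and Tnfrsf1b (0.09 and 0.10) had log2 fold changes above 0 with CM-4620 and CsA, with adjusted p of at least 0.14.

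Measured against resting iTregs in place of restimulated ones, no member was called with CM-4620 (7.1% of all genes were called in either direction) or with CsA (9.43%). limma gave an unadjusted p below 0.05 for 3 and 7 members, a threshold at which no share of all genes was computed. edgeR and DESeq2 called no member. Over all 11105 genes edgeR called 796 and 1066, and DESeq2 719 and 971. Tnfrsf9 with CM-4620 was 0.06 ± 0.09 (SE, adjusted p = 0.653) from rest, with a 95% interval of -0.12 to 0.25, and with CsA 0.24 ± 0.09 (SE, adjusted p = 0.0501), with an interval of 0.06 to 0.43. Tnfrsf4 lay further from rest, at 0.45 ± 0.12 (SE, adjusted p = 0.0196) with CM-4620 and 0.37 ± 0.12 (SE, adjusted p = 0.0403) with CsA. Without resting iTreg 3, the library with the highest resting Tnfrsf4 value, it was called with both compounds (0.60 and 0.52), and with CM-4620 also without CM-4620 library 3 (0.50). Cd27 with the inhibitors was -0.32 ± 0.08 (SE, adjusted p = 0.0137) and -0.35 ± 0.08 (SE, adjusted p = 0.00559) from rest. Between the compounds, whose doses are not stated for these libraries, no member was called (0.36% of all genes were, in either direction). None had an unadjusted p below 0.05 with limma. edgeR and DESeq2 called no member, and each called 44 over all genes. The 95% intervals of the CM-4620 minus CsA difference were -0.36 to 0.00 for Tnfrsf9, -0.24 to 0.03 for Tnfrsf8 and -0.18 to 0.34 for Tnfrsf4.

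**Figure D4:**
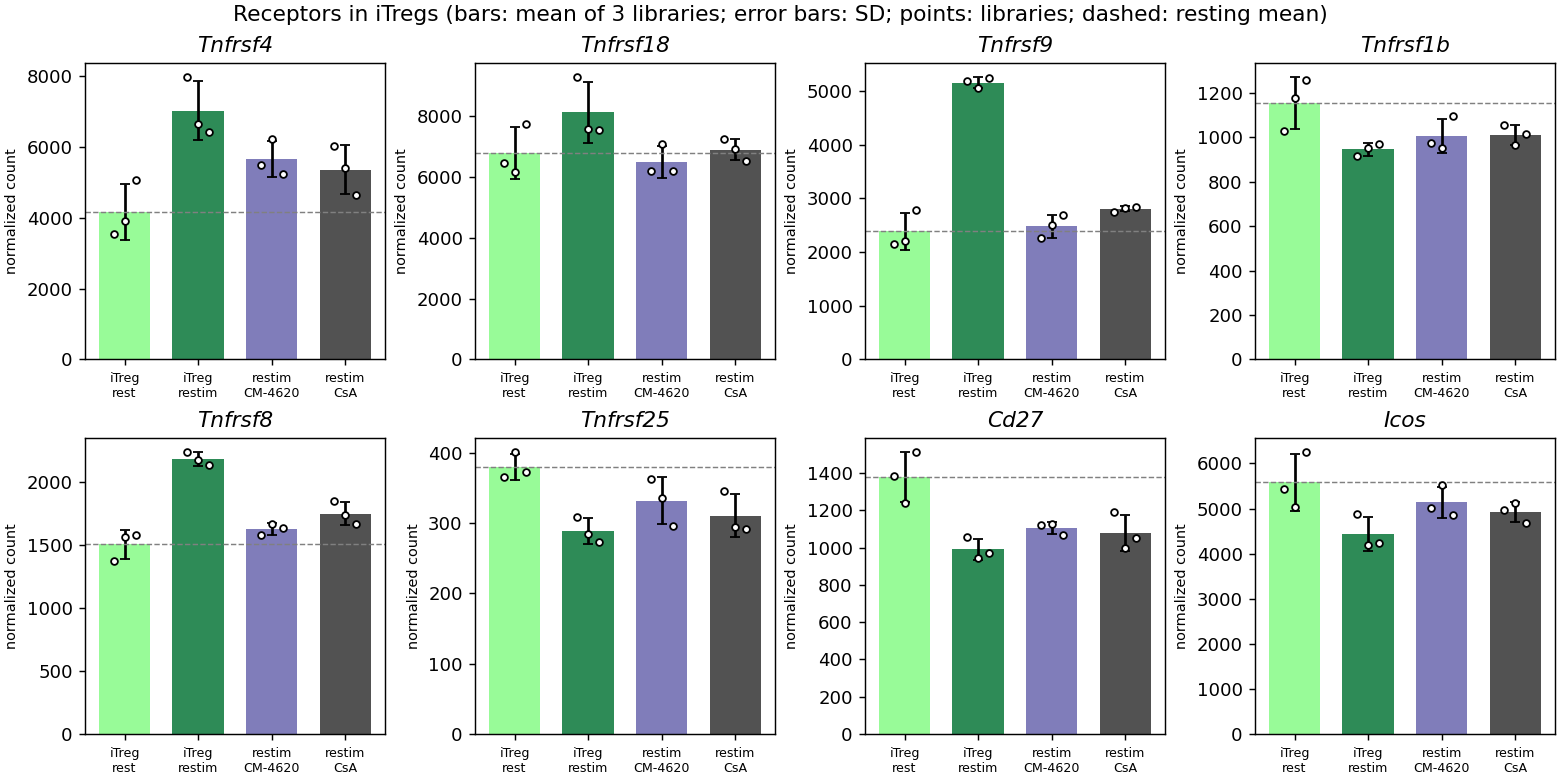
Normalized counts of the 8 receptor genes in the 4 iTreg groups: at rest, after restimulation, and after restimulation with CM-4620 or CsA (y axis, linear, starting at 0), with bars for the mean of 3 libraries, error bars of 1 SD, points for libraries and a dashed line at the resting mean. Tnfrsf9 goes from 2385 at rest to 5161 when restimulated, 2482 with CM-4620 and 2804 with CsA.

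Restimulated iTregs were last set beside the other stimulated cells. Against activated Tconvs 4 members were higher (24.4% of all genes were called higher) and 2 lower (20% were called lower). Tnfrsf8 differed by 5.06 ± 0.19 (SE, adjusted p = 1.53e-15) on the log2 scale and Tnfrsf9 by 2.56 ± 0.15 (SE, adjusted p = 6.20e-12). Tnfrsf4 (0.85 ± 0.13 SE, adjusted p = 6.78e-06) and Tnfrsf18 (0.65 ± 0.12 SE, adjusted p = 8.93e-05) were higher by less than a log2 unit. Tnfrsf25 (-1.78 ± 0.11 SE, adjusted p = 9.93e-12) and Cd27 (-1.37 ± 0.10 SE, adjusted p = 2.36e-10) were lower, and Tnfrsf1b and Icos had 95% intervals of -0.04 to 0.29 and -0.08 to 0.32. Against activated tTregs Tnfrsf8 alone was higher (30.5% of all genes were called higher), at 2184 ± 52.5 against 972 ± 147 normalized counts (1.18 ± 0.19 SE, adjusted p = 9.03e-06), and 4 members were lower (28.8% were called lower). These were Tnfrsf25 (-2.32 ± 0.11 SE, adjusted p = 7.25e-14), Tnfrsf1b (-2.11 ± 0.08 SE, adjusted p = 1.63e-15), Cd27 (-1.83 ± 0.10 SE, adjusted p = 1.18e-12) and Tnfrsf18 (-0.55 ± 0.12 SE, adjusted p = 3.52e-04). The Tnfrsf18 call was lost without restimulated iTreg 3 (-0.50) or activated tTreg 2 (-0.42). Tnfrsf4 (-0.15 ± 0.13 SE, adjusted p = 0.295), Tnfrsf9 (-0.31 ± 0.15 SE, adjusted p = 0.0733) and Icos (-0.10 ± 0.10 SE, adjusted p = 0.379) were not called.

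The responses of iTregs and tTregs to stimulation were compared by an interaction over all 24 libraries. For Tnfrsf9 the iTreg response exceeded that of tTregs (9.01% of all genes were called in this direction), by 1.45 ± 0.22 (SE, adjusted p = 4.39e-05) on the log2 scale. For Tnfrsf8 (-1.78 ± 0.26 SE, adjusted p = 3.80e-05), Tnfrsf25 (-1.05 ± 0.16 SE, adjusted p = 3.73e-05) and Tnfrsf1b (-0.93 ± 0.11 SE, adjusted p = 3.13e-06) it was below it (12.3% were called in that direction). Tnfrsf25 and Tnfrsf1b had higher means in activated than in resting tTregs and lower means in restimulated than in resting iTregs. Icos was at -0.47 ± 0.14 (SE, adjusted p = 0.0129) and was called without resting iTreg 2 (-0.55), restimulated iTreg 1 (-0.54), activated tTreg 3 (-0.52) or resting tTreg 1 (-0.57). Tnfrsf4 (0.30 ± 0.18 SE, adjusted p = 0.235), Tnfrsf18 (-0.04 ± 0.17 SE, adjusted p = 0.894) and Cd27 (-0.25 ± 0.15 SE, adjusted p = 0.217) were not called. The durations of both stimulations are not stated for these libraries.

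The ligands of these receptors were looked at in the same libraries, since T cells make several of them. The ligand list held 11 genes, Tnfsf11 and Tnfsf14 included, whose best known receptors are outside the 8 members, and 8 passed the filter in the 15 libraries of Tconvs, tTregs and resting iTregs. Tnfsf18, Tnfsf15 and Cd70, the ligands of GITR, DR3 and CD27, did not pass. In activated Tconvs 5 ligands rose and 2 fell (24.5% and 25.7% of all genes), and the median log2 fold change of the list was 1.51. The largest differences were those of Lta (3.92) and Tnf (3.91), which both bind TNFR2, of Tnfsf4 (3.76), the ligand of OX40, and of Icosl, the ligand of ICOS. Icosl fell from 17.4 ± 4.31 to 1.17 ± 1.02 normalized counts, the latter at or below 3 reads a library, so no fold is given for it. Tnfsf4 was at 5.51 ± 4.49 and 74.2 ± 5.24 normalized counts, so that its fitted value depends on the added count of 1. Tnf went from 35.1 ± 8.99 to 532 ± 39.6 normalized counts (SD, n = 3). In activated tTregs 3 of the 8 tested ligands fell, Tnfsf11 (-1.35), Icosl (-1.26) and Tnfsf8 (-0.56), the last the ligand of CD30, and none rose, against 10% and 11.9% of all genes. The median over the list was -0.31 on the log2 scale.

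Resting tTregs also had ligands that differed from resting Tconvs. Higher were 5, among them Tnf (3.85), Lta (2.66) and Tnfsf4 (1.72), and Tnfsf14 (-1.52) was lower, where 20.5% of all genes were called higher and 18.2% lower. In restimulated iTregs 1 of 7 ligands tested rose, Tnfsf14 (1.23), and 1 fell, Tnfsf9 (-0.59), the ligand of CD137, against 6.7% and 6.13% of all genes. Tnfsf14 was also the 1 ligand that fell in restimulated cells given CM-4620 (-0.68) and with CsA (-0.66), from 153 ± 13.6 normalized counts to 95.1 ± 2.73 and 96.4 ± 9.40. Among all genes 1.79% and 1.35% were called lower in these comparisons. CD137 and its ligand thus changed in opposite directions in restimulated iTregs, with Tnfsf9 at 98.1 ± 4.07 at rest and 65.5 ± 11.4 when restimulated.

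Of 17 adaptors and NF-κB genes that act below the TNF receptors, all were tested. In activated Tconvs 6 rose and 1 fell (24.5% and 25.7% of all genes), with a median log2 fold change of 0.22. The largest were Nfkb2 (2.37) and Relb (1.41), which form the alternative NF-κB dimer, Siva1 (1.55), which binds CD27, and Traf5 (-1.41), an adaptor of several members. In activated tTregs 5 rose, among them Siva1 (1.16), Nfkb2 (0.81), Tradd (0.80) and Rel (0.69), and Tnfaip3 (-0.65), which encodes the NF-κB inhibitor A20, fell (11.9% of all genes rose and 10% fell). In restimulated iTregs Tnfaip3 (0.61) and Nfkb2 (0.52) rose and Traf5 (-0.67) fell, against 6.7% and 6.13% of all genes. With CM-4620 Tnfaip3 fell again (-0.55, with 1.79% of all genes called lower). At rest, 6 were higher and 3 lower in tTregs than in Tconvs (20.5% and 18.2% of all genes), led by Rel (2.15), Nfkb2 (1.77), Traf6 (1.26) and Nfkb1 (1.12).

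The list of phosphoinositide 3-kinase subunits, which ICOS recruits, held 7 genes. In activated Tconvs, where Icos rose, 5 of the 7 fell, led by Pik3r1 (-1.54), Pik3cg (-1.37), Pik3cb (-1.23) and Pik3r5 (-0.86), with a median of -0.86 on the log2 scale (25.7% of all genes fell). In activated tTregs none was called and the median was -0.28. In restimulated iTregs 1 of 6 tested was called lower, Pik3r5 (-0.68), against 6.13% of all genes. Of 20 other TNF receptors 12 were tested in Tconvs, and 5 rose and 6 fell on activation (24.5% and 25.7% of all genes). Among them Fas (1.23), which has a death domain, rose and Tnfrsf26 (-2.08) fell. Tnfrsf21, also with a death domain, was at 0 in the 3 resting libraries and at 12.7 ± 4.76 normalized counts after activation. Tnfrsf13c, the receptor for BAFF, was at 9.94 ± 2.79 and 1.28 ± 1.13. Both were called, but with 1 group at or below 3 reads a library no fold is given. In tTregs 1 rose, Tnfrsf13b (0.76), and 3 fell, among them Tnfrsf26 (-0.96), against 11.9% and 10% of all genes. In restimulated iTregs Fas (0.58) rose and Tnfrsf1a (-0.53) fell among 10 tested (6.7% and 6.13% of all genes). Of the 4 other CD28 family genes, Ctla4 rose (1.66) and Pdcd1 fell (-1.67) in activated Tconvs. In resting tTregs Ctla4 (3.70) and Pdcd1 (2.01) were higher and Cd28 (-1.16) and Btla (-0.59) lower than in resting Tconvs (20.5% and 18.2% of all genes).

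Likeness between genes was described by Pearson's r of log2(normalized count + 1) over the 24 libraries, which come from 8 groups and so are not 24 independent points. Among the members, Tnfrsf9 and Tnfrsf18 were closest (0.98), followed by the neighbours on chromosome 4 Tnfrsf4 and Tnfrsf18 (0.97). The other neighbours, Tnfrsf1b and Tnfrsf8, had an r of 0.45. Tnfrsf25 and Cd27 went together (0.88), and Tnfrsf8 and Cd27 ran in opposite directions (-0.75). Over all genes past the filter, Tnfrsf9 was closest to Tnfrsf18 (0.98), Notch2 (0.98) and Gpr83 (0.97), and Tnfrsf18 to Tnfrsf9 (0.98), Notch2 (0.97) and Il2rb (0.97). Tnfrsf4 was closest to Cish (0.98), Ezh2 (0.97) and Rgs1 (0.97), Tnfrsf8 to Ctnna1 (0.98), Myo1c (0.98) and Csrp1 (0.98) and Tnfrsf1b to Xxylt1 (0.97), Pcyt1a (0.97) and Tiam1 (0.97). Cd27 was closest to Cd96 (0.99), Kpna4 (0.99) and Dock2 (0.99), Tnfrsf25 to Nod1 (0.96), D5Ertd579e (0.96) and Ifnar1 (0.96) and Icos to Il2ra (0.98), Treml2 (0.98) and Bcl2 (0.98). For pairs of members r over the 8 group means was close to r over the libraries (0.988 and 0.984 for Tnfrsf9 and Tnfrsf18). For genes outside the members r over group means was not computed, and no test was run on any likeness.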

How the data were processed

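RNA was measured in 24 libraries of 8 groups, made by a modified SMART-seq2 protocol that does not mark the strand. Per the labels and methods, the authors trimmed reads with cutadapt 1.18, aligned them with STAR 2.5.3, counted them on genes with RSEM 1.3.0 and normalized with DESeq2 1.26. The deposited signal is gene counts divided by 1 size factor per library. Whole reads could be recovered from it (100% of values within 1e-06 of a whole number in each library with a visible step). The other 16 samples of the series (chromatin assays) were not analysed here.

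Groups were taken from the labels. Nothing says that replicates came from separate animals, so p-values measure the spread between these samples, which may be technical. Differences were tested with limma 3.58.1 (trend, R 4.3.3) on log2(value + 1) for genes that reached 10 normalized counts in 3 or more libraries: 11495 genes over the 15 libraries of Tconvs, tTregs and resting iTregs, 11105 over the 12 iTreg libraries, and 11725 over all 24 libraries for restimulated iTregs against other cells and for neighbouring groups. Adjusted p-values are Benjamini-Hochberg values over all genes tested. The scripts were tested on simulated data. The members, lists and tests were chosen with earlier results of these data known. Named genes are the 8 members, up to 4 called genes per list and comparison with the largest change (ligands, adaptors and NF-κB arm, PI3K subunits, other TNF receptors, CD28 family), and the 3 most alike genes per member. Alternatives were other scalings, pseudocounts (0.1 and 5), filters, samples in the fit, a replicate block, each library left out, other thresholds, edgeR 4.0.16 and DESeq2 1.42.0 on the recovered counts. Exonic lengths and positions are from GENCODE (GRCm38), merged over transcripts. No protein sequence was used.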

Additional observations from a re-analysis of the deposited data

Results flagged for a closer look

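Results drew attention where the response to stimulation differed between cell types by a test of the difference itself (limma interaction, log2 scale, ± SE). Tconv minus tTreg differences were 5.05 ± 0.26 (adjusted p = 2.26e-09) for Tnfrsf9, 3.74 ± 0.18 (adjusted p = 1.21e-09) for Tnfrsf4, 2.23 ± 0.33 (adjusted p = 9.09e-05) for Tnfrsf8, 1.84 ± 0.18 (adjusted p = 2.19e-06) for Tnfrsf18, 1.66 ± 0.15 (adjusted p = 8.68e-07) for Icos and -0.61 ± 0.16 (adjusted p = 0.0088) for Cd27, the last not called with quantile scaling (-0.46). The first of these genes had resting means of 32.2 normalized counts in Tconvs and 8153 in tTregs. For Tnfrsf8 the size of the Tconv minus tTreg difference depends on the added count of 1. iTreg minus tTreg differences were 1.45 ± 0.22 (adjusted p = 4.39e-05) for Tnfrsf9, -1.78 ± 0.26 (adjusted p = 3.80e-05) for Tnfrsf8, -1.05 ± 0.16 (adjusted p = 3.73e-05) for Tnfrsf25 and -0.93 ± 0.11 (adjusted p = 3.13e-06) for Tnfrsf1b. The tTreg libraries enter both sets.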

How the results depend on the processing

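Of 386 counts of called members or neighbouring pairs recomputed under an alternative, 373 stayed within 1.5 times their value and 13 moved. Of 2792 recomputed single values, 2697 kept their direction and their side of the threshold, 31 lost the call, 43 gained one and 21 changed sign. Of those 13, 10 came from another threshold. With a log2 fold change above 1, called members were 1 in activated tTregs, 1 in restimulated iTregs and 0 with CsA against restimulation, and 9 neighbouring pairs differed. With the adjusted p alone they were 7 for resting iTregs against activated Tconvs, 7 on restimulation, 2 with CM-4620 and 2 with CsA against restimulation, and 2 and 4 against rest. Shares of all genes at these other thresholds were not computed.

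Quantile scaling, which shifted the median of all genes by up to -0.14 on the log2 scale, changed the sign of Icos in activated tTregs (-0.015), Cd27 in resting tTregs against Tconvs (0.062), Tnfrsf4 in resting iTregs against activated Tconvs (-0.017) and Tnfrsf18 in the iTreg minus tTreg response (0.19), none of them called. It also gave -0.56 for Tnfrsf9 in activated tTregs, called lower, and -0.46 for Cd27 in the Tconv minus tTreg response, not called. It brought calls for Cd27 in activated tTregs against activated Tconvs (0.52), Tnfrsf4 in resting iTregs against resting tTregs (-0.87) and Tnfrsf9 in restimulated iTregs against activated tTregs (-0.55). The cause was not tested. Leaving out single libraries gave members called against rest from 0 to 1 with either inhibitor. It took values across 0 for resting iTregs against activated Tconvs (Tnfrsf4, -0.060 to 0.19), CsA against rest (Tnfrsf18, -0.039 to 0.13), CM-4620 against rest (Tnfrsf9, -0.0041 to 0.18, and Tnfrsf18, -0.13 to 0.037), CM-4620 against CsA (Tnfrsf1b, -0.072 to 0.030, Tnfrsf4, -0.016 to 0.17, and Cd27, -0.019 to 0.11) and the iTreg minus tTreg response (Tnfrsf18, -0.16 to 0.092).

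With the replicate number as a block (replicate block), called members were 7 in activated Tconvs, 3 in activated tTregs, 3 on restimulation, 1 with each inhibitor against restimulation and 0 against rest, as without it, 16 neighbouring pairs differed, and no call changed. Samples with the same number did not all deviate together (mean correlation of -0.0070 over the 15 libraries, from -0.42 to 0.24, and 0.15 over the 12 iTreg libraries, from -0.039 to 0.30, against -0.075 for different numbers). The 6 pairs of iTreg libraries numbered 3 correlated at 0.21 to 0.30. As not every pair was above 0.1, the numbers were not taken to pair samples. Depth limited Tnfrsf8 in resting Tconvs, where 3 reads corresponded to 2.63 to 3.09 normalized counts.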
